A study of Mus musculus with 18 samples.

Results

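Guidance genes of the semaphorin, plexin, SLIT, ROBO and netrin families were followed in LEC, the endothelial cells of lymphatic vessels, and BEC, those of blood vessels, of mouse embryos. The members were all genes whose array annotation symbol names a semaphorin of classes 3 to 7, a plexin, Slit1 to Slit3, Robo1 to Robo4, a netrin, Dcc, Neo1 or a member of the Unc5 family. The rule found 46 of the 19938 genes tested, 27 ligands and 19 receptors, and took the brightest row where a gene had several. The study measured RNA of LEC and BEC at embryonic days 14.5, 16.5 and 18.5 (E14.5, E16.5 and E18.5) on 18 Affymetrix Mouse Gene 1.0 ST arrays, 3 for each of the 6 groups, and its title places them in work on how LEC identity is controlled by an enhancer that GATA2 binds. Each group came from 3 litters, and LEC and BEC samples of an age were matched. The labels give the tissue as embryonic and name no strain, genotype, organ, treatment or sorting marker.

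Semaphorins are ligands that signal through plexins. The secreted class 3 members mostly need a neuropilin as co-receptor, whereas classes 4, 5 and 6 are held in the membrane and class 7 by a lipid anchor. SLIT proteins are secreted ligands of ROBO receptors, and netrins are laminin-like ligands of DCC, neogenin and the UNC5 receptors. These systems were first described in growing axons and also steer endothelial sprouts. In lymphatic vessels, SEMA3A and its receptors take part in valve formation.

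All values are log2 expression values made by robust multi-array averaging (RMA), so that a difference of 1 is a 2-fold difference. Arrays of a group correlated at 0.986 to 0.996 over all genes, with the lowest values in the E18.5 groups. Markers of lymphatic endothelium, such as Prox1 and Lyve1, were higher in LEC for 7 of 7 measured genes, and markers of blood endothelium, such as Flt1 and Notch4, were lower for 8 of 8. Markers of all endothelium were higher in LEC for 1 of 8 genes and lower for 5 (median -0.36). Their summed linear level was 11861 to 12742 on LEC arrays at E14.5, 12859 to 14530 at E16.5 and 13237 to 15892 at E18.5. On BEC arrays it was 17196 to 17791, 18592 to 20251 and 19940 to 21245. The part of this difference in the guidance gene results was not tested. Other cell types differed too. Macrophage markers were higher in LEC for 12 of 12 genes, mast cell markers for 8 of 8 and general leukocyte markers for 4 of 7 (1 lower), and mural cell markers were lower for 9 of 9. Epithelial markers were higher in LEC for 6 of 8 genes and lower for 0 (median 0.83). At E18.5 their summed linear level was 1532 to 2593 on LEC arrays, against 569 to 837 on BEC arrays. Mast cell markers summed, on the linear scale, to 11802 to 16907 on LEC arrays at E14.5, 24535 to 25621 at E16.5, then 18892 to 24327 at E18.5, against 1165 to 6448 on BEC arrays. The part of these cells in the guidance gene results was not tested. Of the 8 neuron and Schwann cell markers, 1 was higher and 1 lower, and Tubb3, Elavl4 and Nefl lay below 4.66 in all 6 groups. Stmn2 of that list rose with age in LEC (3.73 ± 0.22, means 4.62, 6.99 and 8.35) and in BEC (1.61 ± 0.22, means 5.71, 6.97 and 7.32), and Erbb3 rose in LEC (1.51 ± 0.17). The bound of 4.66, the 95th percentile of olfactory and vomeronasal receptor genes, which endothelium is not known to use, marks dim signals here. Among the guidance genes, 32 lay above it on all 18 arrays and Sema4f, a membrane semaphorin, below it on all.

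Of the 46 guidance genes, about as many were higher in LEC as in BEC, and 17 did not pass the test. Over the mean of the 3 ages, 14 of 46 were higher in LEC (30.4%, against 18.2% of all genes tested) and 15 lower (32.6%, against 19%), at an adjusted p under 0.05 in limma. By at least 1 on the log2 scale, 14 differed (30.4%, against 6.35% of all genes). The 8 higher in LEC were Sema3d, Sema3a, Ntn1, Plxna4, Slit2, Sema4d, Plxnc1 and Neo1, and the 6 lower were Sema7a, Sema3g, Robo4, Plxnd1, Sema6d and Sema6b. The median difference of the 46 genes was -0.06, against -0.02 for all genes, and the median size of the difference was 0.34 against 0.14. For 7 guidance genes higher in LEC, LEC and BEC arrays did not overlap at any of the 3 ages (15.2%, against 8.22% of all genes). The same held for 10 lower in LEC (21.7%, against 8.05%). Ligands were higher for 10 of 27 and lower for 9, and receptors higher for 4 of 19 and lower for 6. In isolates of this kind, fewer cells of a type and less RNA per cell cannot be told apart.

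**Figure D1:**
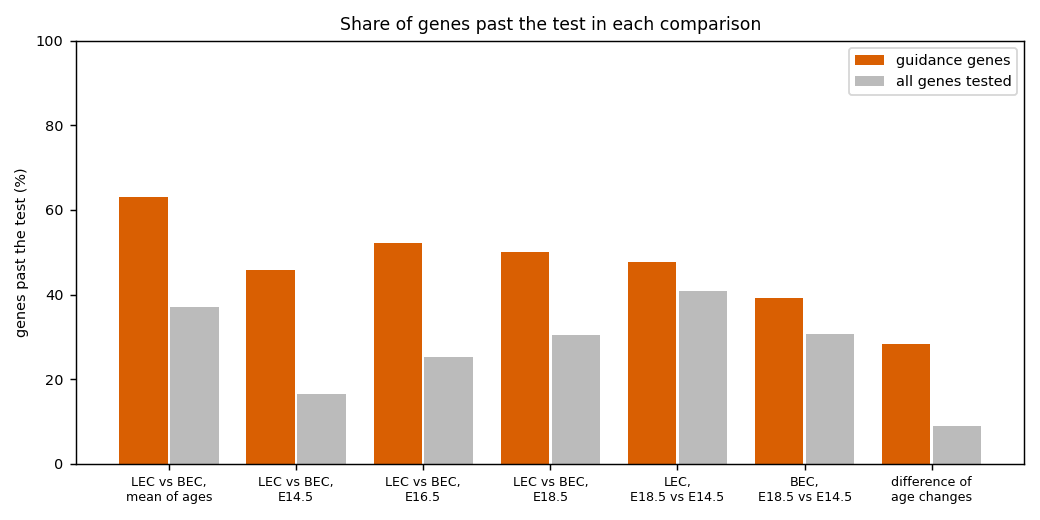
Percentage of genes past the test (limma adjusted p under 0.05, either direction) among the 46 guidance genes (orange) and all 19938 genes (grey) in each of 7 comparisons. The share of guidance genes was 63% against 37.1% for LEC against BEC over the mean of the ages, and 28.3% against 8.85% for the difference between the age changes.

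Among the secreted class 3 semaphorins, Sema3d and Sema3a were high in LEC, Sema3g was high in BEC, and Sema3e became higher in LEC at E18.5. Sema3d and Sema3a are next to each other in the RefSeq gene table of assembly GRCm38.p6, with 0 protein-coding genes between them, and Sema3e follows after 3 genes. RefSeq promoters, 250 bases before to 50 after a gene's start, are shown for the class 3 genes with a large difference. Capitals mark ETS-type letters (AGGAAG or CGGAAG) and SOX-type letters (AACAAT or ACAATG) on either strand, motif types of factors at work in endothelium, and GATA-type letters (AGATAA or TGATAA) were searched as well.
Sema3d promoter, GRCm38.p6 chr5:12382916-12383215, plus strand: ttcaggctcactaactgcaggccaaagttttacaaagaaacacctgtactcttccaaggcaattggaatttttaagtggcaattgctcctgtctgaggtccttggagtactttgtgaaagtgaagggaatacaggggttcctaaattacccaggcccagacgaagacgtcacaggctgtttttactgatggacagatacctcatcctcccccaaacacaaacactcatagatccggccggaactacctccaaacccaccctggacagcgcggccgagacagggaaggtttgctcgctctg
Sema3a promoter, GRCm38.p6 chr5:13396534-13396833, plus strand: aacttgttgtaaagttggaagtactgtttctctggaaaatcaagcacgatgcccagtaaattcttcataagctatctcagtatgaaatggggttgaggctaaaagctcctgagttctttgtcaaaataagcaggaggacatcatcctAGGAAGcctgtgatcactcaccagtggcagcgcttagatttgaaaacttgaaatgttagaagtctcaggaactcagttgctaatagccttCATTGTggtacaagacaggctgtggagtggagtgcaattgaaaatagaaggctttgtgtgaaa
Sema3g promoter, GRCm38.p6 chr14:31217623-31217922, plus strand: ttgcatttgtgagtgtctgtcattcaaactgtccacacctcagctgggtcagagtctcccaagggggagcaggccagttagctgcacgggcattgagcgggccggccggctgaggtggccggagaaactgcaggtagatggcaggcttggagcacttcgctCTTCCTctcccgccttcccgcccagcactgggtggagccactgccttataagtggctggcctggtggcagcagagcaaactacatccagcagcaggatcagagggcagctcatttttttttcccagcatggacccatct
The Sema3d window held none of the 3 motif types, the Sema3a window 1 ETS-type and 1 SOX-type match, and the Sema3g window 1 ETS-type match. A match is a description of the letters only.

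Sema3d, a secreted ligand that acts on endothelial cells, read 9.19, 9.14 and 9.26 (E14.5), 9.86, 9.78 and 9.74 (E16.5), then 10.13, 10.31 and 10.19 (E18.5) in LEC. BEC values of Sema3d were 6.63, 6.20 and 6.32 (E14.5), 4.70, 5.03 and 4.98 (E16.5), then 5.10, 4.03 and 4.45 (E18.5). Every LEC array lay above every BEC array, and the BEC level was highest at E14.5. The difference was 4.46 ± 0.11 (SE) over the 3 ages (adjusted p = 1.4e-16). It was 2.81 ± 0.19 at E14.5, 4.89 ± 0.19 at E16.5, then 5.69 ± 0.19 at E18.5. In BEC, 2 of the 3 arrays of E18.5 lay below the 4.66 bound for dim signals and those of E16.5 just above it, so the sizes at these ages are limited by dim signal. From E14.5 to E18.5 Sema3d rose in LEC (1.01 ± 0.19) and fell in BEC (-1.86 ± 0.19), a difference of 2.87 ± 0.26 between the changes (adjusted p = 1.1e-06). Lymphatic markers fell on the BEC arrays over the same ages, 6 of 7 past the test with a median of -1.75, among them Prox1 (-1.94 ± 0.15), Reln (-2.34 ± 0.15) and Mmrn1 (-2.70 ± 0.17). Their summed linear level there was 2723 to 3281 at E14.5, 1724 to 1774 at E16.5, then 1369 to 1466 at E18.5. Their part in the BEC falls of Sema3d and Sema3a was not tested.

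Sema3a, the ligand with a role in lymphatic valves, read 7.72, 7.60 and 7.73 (E14.5), 8.41, 8.39 and 8.34 (E16.5), then 9.26, 9.48 and 9.61 (E18.5) in LEC. BEC values of Sema3a were 5.43, 5.26 and 5.36 (E14.5), 4.88, 4.91 and 5.01 (E16.5), then 4.68, 4.96 and 4.66 (E18.5). LEC arrays were higher at each later age without overlap, and BEC arrays of E18.5 lay below those of E14.5. The difference grew from 2.33 ± 0.11 at E14.5 to 3.45 ± 0.11 at E16.5 and 4.68 ± 0.11 at E18.5, where the BEC arrays lay at or near the bound for dim signals. The rise in LEC was 1.76 ± 0.11 and the fall in BEC -0.58 ± 0.11, a difference between the changes of 2.35 ± 0.15 (adjusted p = 2.2e-08).

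Sema3e, which binds plexin D1 without a neuropilin, read 4.46, 4.75 and 4.55 (E14.5), 4.60, 4.35 and 4.88 (E16.5), then 5.84, 6.11 and 5.87 (E18.5) in LEC. BEC values of Sema3e were 4.65, 4.59 and 4.65 (E14.5), 4.39, 4.24 and 4.48 (E16.5), then 4.69, 4.98 and 4.91 (E18.5). The groups overlapped at E14.5 and E16.5, where several arrays were below the 4.66 bound for dim signals, and separated at E18.5. Only the E18.5 difference passed the test (1.09 ± 0.13, adjusted p = 2e-06), against -0.05 ± 0.13 at E14.5 and 0.24 ± 0.13 at E16.5. Its mean difference over the ages (0.43 ± 0.08) was no longer past the test without the E18.5 arrays (0.10, adjusted p = 0.46). In LEC it rose by 1.36 ± 0.13, in BEC the difference was 0.22 ± 0.13 (adjusted p = 0.22), and the changes differed by 1.13 ± 0.18 (adjusted p = 0.00045).

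Sema3g, a class 3 semaphorin known from arterial endothelium, read 5.51, 5.37 and 5.57 (E14.5), 5.92, 5.49 and 5.41 (E16.5), then 5.55, 5.41 and 5.90 (E18.5) in LEC. BEC values of Sema3g were 7.88, 7.81 and 7.95 (E14.5), 8.50, 8.28 and 8.59 (E16.5), then 8.07, 7.94 and 8.14 (E18.5). All 9 BEC arrays lay above all 9 LEC arrays, and BEC was highest at E16.5. The difference was -2.56 ± 0.08 over the ages (5.89-fold, adjusted p = 5.3e-15), with -2.40 ± 0.14, -2.85 ± 0.14 and -2.43 ± 0.14 at the 3 ages in order. Neither age change passed the test (0.14 ± 0.14 in LEC and 0.17 ± 0.14 in BEC).

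The remaining class 3 genes did not differ past the test over the ages. The difference was -0.08 ± 0.09 for Sema3f, a neuropilin-2 ligand (95% interval -0.26 to 0.10), -0.14 ± 0.06 for Sema3b (-0.28 to -0.01) and 0.19 ± 0.12 for Sema3c (-0.06 to 0.44). Sema3b passed it without BEC E18.5 replicate 2 (-0.17, adjusted p = 0.044) or LEC E18.5 replicate 3 (-0.17, adjusted p = 0.038). Sema3c was dim, below 4.66 on all arrays of 5 groups. Sema3f rose with age alike in LEC (0.67 ± 0.15) and BEC (0.65 ± 0.15), with a difference between the changes of 0.02 ± 0.21 (95% interval -0.42 to 0.46).

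In class 4, Sema4d was higher and Sema4c lower in LEC. Sema4d, a ligand of plexin B1 that leukocytes also make, read 6.36, 6.45 and 6.19 (E14.5), 6.99, 6.92 and 7.10 (E16.5), then 7.30, 7.81 and 7.69 (E18.5) in LEC. BEC values of Sema4d were 5.35, 5.15 and 5.02 (E14.5), 5.22, 5.19 and 4.78 (E16.5), then 5.19, 5.03 and 5.24 (E18.5). All LEC arrays lay above all BEC arrays, and each later age was higher in LEC without overlap. The difference was 1.16 ± 0.14 at E14.5, 1.94 ± 0.14 at E16.5, then 2.45 ± 0.14 at E18.5, and 1.85 ± 0.08 over the ages (adjusted p = 6.8e-13). Sema4d rose in LEC by 1.27 ± 0.14 against -0.02 ± 0.14 in BEC, with 1.28 ± 0.20 between the changes (adjusted p = 0.00036). A dimmer row of Sema4d, with a mean level of 5.11 against 6.05, showed no such difference over the ages (0.06 ± 0.10, unadjusted p = 0.56). In that row the age change was 0.62 ± 0.17 in LEC and 0.05 ± 0.17 in BEC, and the mean of both rows gave 0.95 (adjusted p = 1.8e-09). Of the 12 macrophage markers, 10 rose with age in LEC like Sema4d, while Cx3cr1 fell (-1.16 ± 0.18) and Tyrobp differed by 0.10 ± 0.21. Their summed linear level was 2085 to 2186 on the LEC arrays at E14.5, 3068 to 5933 at E16.5 and 6567 to 10145 at E18.5, against 598 to 677, 468 to 542 and 518 to 719 in BEC. In BEC, 2, 4 and 3 of the 12 lay below 4.66 at the 3 ages in order, Itgam at each, and others lay above it, such as Cd68 with means of 6.99, 7.01 and 7.67. General leukocyte markers fell with age in LEC for 4 of 7 genes and rose for 1 (median -0.70). They summed to 2368 to 3203 on LEC arrays at E14.5 and 1351 to 1910 at E18.5. The part of macrophages and other leukocytes in the Sema4d result was not tested.

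Sema4c, a ligand of plexin B2, read 9.14, 8.99 and 9.28 (E14.5), 7.87, 8.18 and 8.49 (E16.5), then 7.89, 7.70 and 7.98 (E18.5) in LEC. BEC values of Sema4c were 9.45, 9.38 and 9.40 (E14.5), 9.50, 9.43 and 9.35 (E16.5), then 8.90, 9.48 and 9.19 (E18.5). LEC lay below BEC at each age, by a small margin at E14.5 and a wider one later. The difference was -0.28 ± 0.15 at E14.5 (adjusted p = 0.29), -1.25 ± 0.15 at E16.5, then -1.33 ± 0.15 at E18.5. Sema4c fell with age in LEC (-1.28 ± 0.15), in BEC the difference was -0.22 ± 0.15 (adjusted p = 0.3), and the changes differed (-1.06 ± 0.21, adjusted p = 0.003).

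Smaller class 4 differences toward LEC were those of Sema4a, a semaphorin of immune cells (0.67 ± 0.13 over the ages), and Sema4b (0.26 ± 0.06). Sema4a was higher at E14.5 (0.90 ± 0.22) and E16.5 (0.89 ± 0.22) and not past the test at E18.5 (0.21 ± 0.22, adjusted p = 0.53). Sema4g was lower (-0.27 ± 0.09, adjusted p = 0.024). That call ended without replicate 2 of BEC E14.5 (-0.24), or replicate 1 of LEC E14.5 (-0.25), replicate 2 of LEC E16.5 (-0.23) or replicate 3 of LEC E18.5 (-0.22). Sema4f did not differ past the test (-0.05 ± 0.07, 95% interval -0.21 to 0.10).

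Of the 7 semaphorins of classes 5, 6 and 7, 6 were lower in LEC over the ages and 0 were higher. The shares of all genes tested were 19% lower and 18.2% higher. Sema7a, the lipid-anchored ligand of plexin C1 and of an integrin, had the largest difference toward BEC of the 46 genes. It read 5.91, 5.85 and 5.83 (E14.5), 5.69, 5.69 and 5.68 (E16.5), then 5.85, 5.90 and 6.14 (E18.5) in LEC. BEC values of Sema7a were 8.22, 8.34 and 8.23 (E14.5), 8.90, 9.04 and 9.02 (E16.5), then 9.15, 9.46 and 9.24 (E18.5). All LEC arrays lay below all BEC arrays, and BEC values of E14.5 lay below the later ones. The difference was -3.01 ± 0.06 over the ages (8.04-fold, adjusted p = 1.2e-17), -2.40 ± 0.10 at E14.5, -3.30 ± 0.10 at E16.5, then -3.32 ± 0.10 at E18.5. Sema7a rose in BEC (1.02 ± 0.10) and had a difference of 0.10 ± 0.10 in LEC (adjusted p = 0.47), and the cell types differed in this change (-0.92 ± 0.14, adjusted p = 0.00032).

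Class 6 semaphorins are ligands of A-type plexins. Sema6d read 7.77, 7.48 and 7.5 (E14.5), 6.96, 7.30 and 7.21 (E16.5), then 7.60, 7.94 and 7.61 (E18.5) in LEC. BEC values of Sema6d were 8.99, 8.93 and 9.0 (E14.5), 9.07, 8.99 and 9.18 (E16.5), then 9.08, 8.93 and 9.04 (E18.5). The groups did not overlap, and the LEC arrays were lowest at E16.5. The difference was -1.54 ± 0.07 over the ages (2.90-fold, adjusted p = 5.5e-13), with -1.39 ± 0.12, -1.93 ± 0.12 and -1.30 ± 0.12 at the 3 ages in order.

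Sema6b read 7.54, 7.56 and 7.57 (E14.5), 7.47, 7.40 and 7.73 (E16.5), then 7.67, 7.51 and 7.63 (E18.5) in LEC. BEC values of Sema6b were 8.27, 8.48 and 8.35 (E14.5), 8.80, 8.61 and 8.68 (E16.5), then 8.67, 8.82 and 8.89 (E18.5). LEC lay below BEC on every array, within a narrow range in each group. The difference was -1.05 ± 0.06 (adjusted p = 2.6e-11), and Sema6b rose with age in BEC (0.42 ± 0.10). The annotation lists 2 rows for it whose values were equal on 18 of 18 arrays. Sema6c was lower in LEC (-0.59 ± 0.07) at each age, though its E18.5 call (-0.43 ± 0.12) ended without BEC E18.5 replicate 2 (-0.33, adjusted p = 0.071), with array weights (-0.44, adjusted p = 0.054) and with only the groups compared in the fit (-0.43, adjusted p = 0.084). Sema6a did not differ over the ages (-0.01 ± 0.06, 95% interval -0.13 to 0.10) and rose in LEC (0.69 ± 0.10) and BEC (0.65 ± 0.10).

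The class 5 genes, which carry thrombospondin repeats, were lower in LEC by small amounts. Sema5a read 4.89, 4.50 and 4.91 (E14.5), 4.77, 4.94 and 4.97 (E16.5), then 5.33, 6.08 and 5.19 (E18.5) in LEC. BEC values of Sema5a were 4.88, 4.89 and 5.07 (E14.5), 5.51, 6.08 and 5.47 (E16.5), then 6.07, 6.55 and 6.35 (E18.5). The groups overlapped at E14.5 and, through LEC E18.5 replicate 2, at E18.5. The difference was -0.59 ± 0.12 over the ages (adjusted p = 0.00045). Sema5a rose in BEC (1.38 ± 0.20) and in LEC (0.77 ± 0.20, 0.50 with adjusted p = 0.038 without LEC E18.5 replicate 2), and the cell types did not differ past the test in this change (-0.61 ± 0.29, adjusted p = 0.23). Mural cell markers moved with Sema5a in BEC: the summed linear level of the 9 genes was 582 to 631 at E14.5, 1188 to 1385 at E16.5 and 3311 to 4157 at E18.5, against 466 to 703 on all LEC arrays. The part of mural cells in this result was not tested. Sema5b differed by -0.21 ± 0.07, a call that ended without the E18.5 arrays (-0.14, adjusted p = 0.26) and without replicate 1 of BEC E14.5 (-0.18), of LEC E14.5 (-0.18) or of LEC E16.5 (-0.20).

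**Figure D2:**
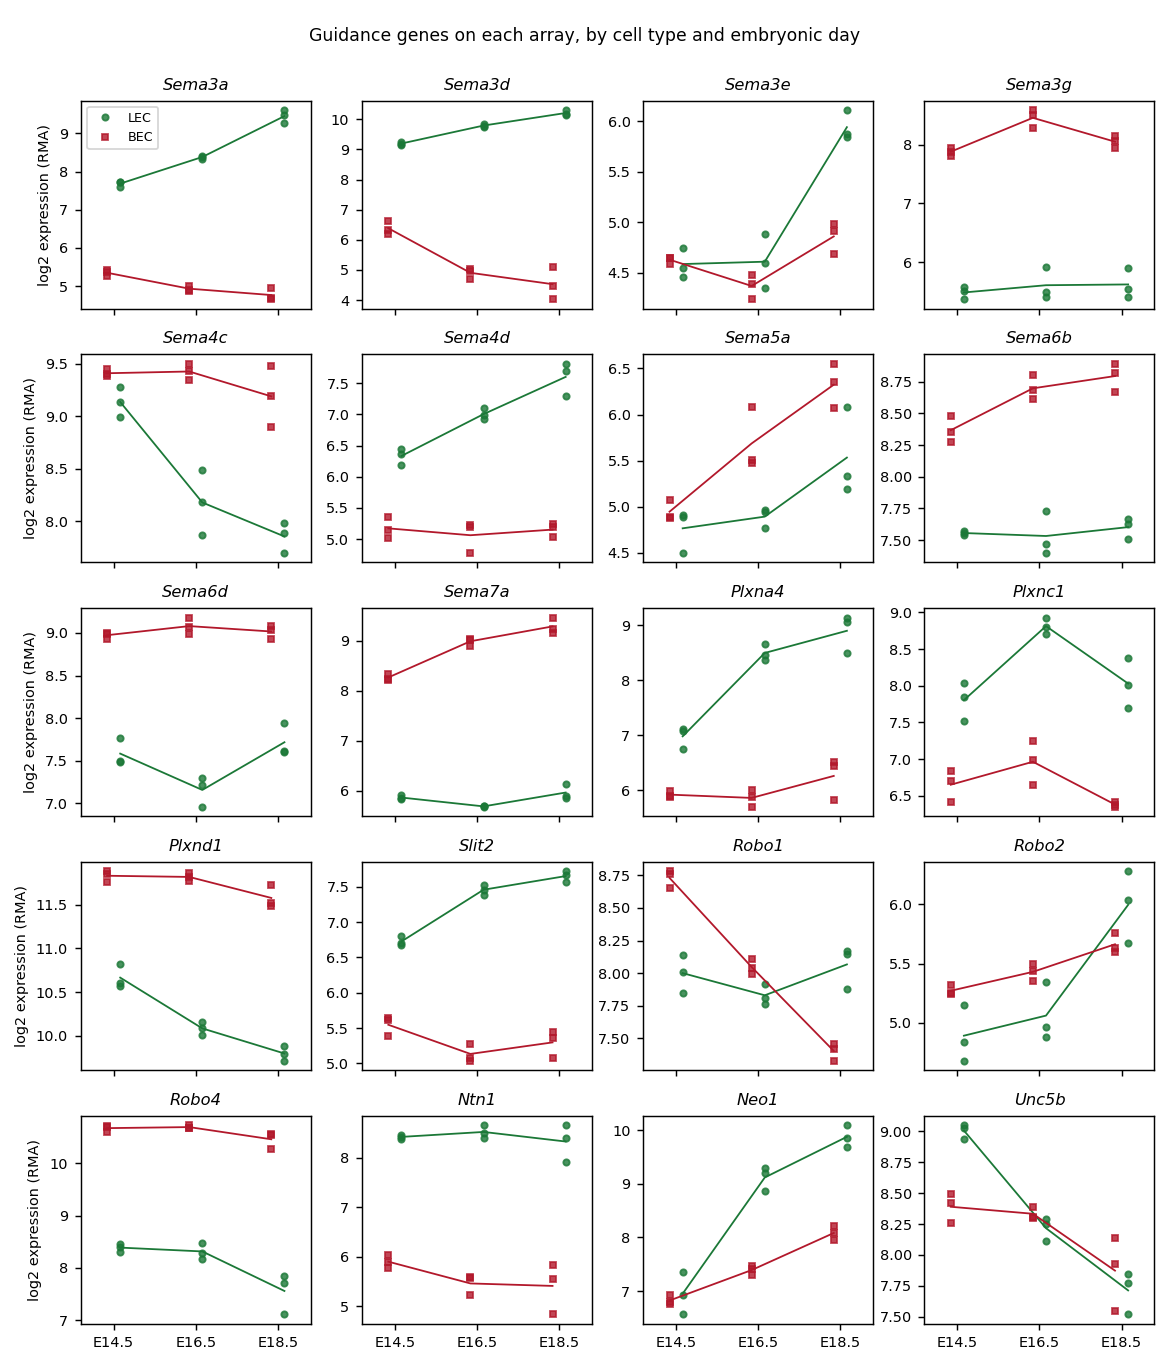
Log2 expression of the 20 guidance genes named with values on every array, by embryonic day, with each of the 3 LEC arrays (green circles) and 3 BEC arrays (red squares) of an age as a point and lines through the group means. The vertical axes differ between genes. LEC and BEC points stay apart at each age for Sema3a, Sema3d, Sema3g and Sema7a, and the lines of Robo1 cross after E16.5.

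Of the 9 plexins, the semaphorin receptors, 3 were higher and 5 lower in LEC over the ages. The shares of all genes tested were 18.2% and 19%. Promoters of Plxnd1 and Plxnc1, which differed in opposite directions, are shown with the same motif letters in capitals.
Plxnd1 promoter, GRCm38.p6 chr6:115994956-115995255, minus strand: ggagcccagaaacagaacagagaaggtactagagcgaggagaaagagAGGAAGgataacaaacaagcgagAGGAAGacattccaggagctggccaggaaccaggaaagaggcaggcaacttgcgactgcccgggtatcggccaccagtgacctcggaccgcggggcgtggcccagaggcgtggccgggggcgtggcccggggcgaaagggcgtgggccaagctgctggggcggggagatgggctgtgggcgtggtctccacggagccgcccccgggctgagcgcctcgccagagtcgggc
Plxnc1 promoter, GRCm38.p6 chr10:94944796-94945095, minus strand: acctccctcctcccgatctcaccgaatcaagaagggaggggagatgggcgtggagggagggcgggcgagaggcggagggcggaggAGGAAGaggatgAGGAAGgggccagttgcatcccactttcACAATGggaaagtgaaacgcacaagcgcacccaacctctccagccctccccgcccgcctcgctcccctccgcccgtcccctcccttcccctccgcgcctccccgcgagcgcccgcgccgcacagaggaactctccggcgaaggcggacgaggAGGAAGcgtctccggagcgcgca
The Plxnd1 window held 2 ETS-type matches, and the Plxnc1 window 3 ETS-type matches and 1 SOX-type match.

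Plxna4, a plexin that pairs with neuropilins for class 3 ligands and binds class 6 ligands directly, read 6.75, 7.11 and 7.08 (E14.5), 8.66, 8.37 and 8.46 (E16.5), then 8.50, 9.06 and 9.14 (E18.5) in LEC. BEC values of Plxna4 were 5.87, 5.99 and 5.90 (E14.5), 5.88, 5.70 and 6.0 (E16.5), then 6.51, 6.44 and 5.83 (E18.5). All LEC arrays lay above all BEC arrays, and the LEC level was lowest at E14.5. The difference was 1.06 ± 0.18 at E14.5, 2.64 ± 0.18 at E16.5, then 2.64 ± 0.18 at E18.5 (6.23-fold). Plxna4 rose in LEC by 1.92 ± 0.18, in BEC the difference was 0.34 ± 0.18 (adjusted p = 0.17), and the changes differed (1.58 ± 0.25, adjusted p = 0.00037).

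Plxnc1, the receptor of Sema7a, read 7.85, 8.04 and 7.52 (E14.5), 8.93, 8.71 and 8.80 (E16.5), then 8.38, 8.01 and 7.70 (E18.5) in LEC. BEC values of Plxnc1 were 6.84, 6.70 and 6.41 (E14.5), 6.65, 7.25 and 6.99 (E16.5), then 6.42, 6.37 and 6.35 (E18.5). LEC lay above BEC at each age and was highest at E16.5. The difference was 1.55 ± 0.10 over the ages (2.93-fold, adjusted p = 1.8e-10), the opposite direction to its ligand Sema7a. Plxnc1 is also expressed by leukocytes, and general leukocyte markers summed to 2368 to 3203, 3051 to 3320 and 1351 to 1910 on LEC arrays of the 3 ages, against 1470 to 1633, 1198 to 1297 and 963 to 1030 on BEC arrays. Their part in the Plxnc1 result was not tested.

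Plxnd1, the endothelial receptor of Sema3e, read 10.82, 10.57 and 10.61 (E14.5), 10.09, 10.01 and 10.16 (E16.5), then 9.79, 9.72 and 9.89 (E18.5) in LEC. BEC values of Plxnd1 were 11.76, 11.88 and 11.85 (E14.5), 11.86, 11.77 and 11.82 (E16.5), then 11.49, 11.72 and 11.52 (E18.5). Every BEC array lay above every LEC array, and LEC was highest at E14.5. The difference was -1.16 ± 0.10 at E14.5, -1.73 ± 0.10 at E16.5, then -1.78 ± 0.10 at E18.5. Plxnd1 fell with age in LEC (-0.87 ± 0.10) and differed by -0.26 ± 0.10 in BEC (adjusted p = 0.057), and the changes differed (-0.61 ± 0.14, adjusted p = 0.0077).

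Among the other plexins, Plxnb2 (-0.87 ± 0.07), the receptor of Sema4c, and Plxna2 (-0.77 ± 0.05), a receptor of class 6 ligands, were lower in LEC with no overlap at any age. Their levels were 7.39 to 8.88 for Plxnb2 and 7.82 to 9.20 for Plxna2 over all arrays. Plxnb1 (-0.35 ± 0.07), the receptor of Sema4d, and Plxna1 (-0.28 ± 0.06), a partner of neuropilin 1, were lower by less. Plxna3 was higher (0.25 ± 0.08, adjusted p = 0.023), a call that ended without the E18.5 arrays (0.21, adjusted p = 0.071) or without BEC E14.5 replicate 1, BEC E16.5 replicate 2 or BEC E18.5 replicate 3 (0.22 each). Plxnb3 did not differ past the test (-0.04 ± 0.09, 95% interval -0.23 to 0.15).

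Of the SLIT ligands, Slit2 and Slit3 were higher in LEC, and of the ROBO receptors Robo4 was lower. The promoter of Robo4, a receptor largely limited to endothelium, is shown because Robo4 had the largest difference of the receptors.
Robo4 promoter, GRCm38.p6 chr9:37401722-37402021, plus strand: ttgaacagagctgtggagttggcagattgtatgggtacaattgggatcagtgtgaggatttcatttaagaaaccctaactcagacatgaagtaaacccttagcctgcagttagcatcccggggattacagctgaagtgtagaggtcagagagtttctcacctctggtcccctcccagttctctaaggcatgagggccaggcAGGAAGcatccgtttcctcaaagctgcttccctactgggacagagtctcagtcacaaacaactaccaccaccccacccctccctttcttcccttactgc
The window held 1 ETS-type match. Slit2 read 6.68, 6.70 and 6.80 (E14.5), 7.39, 7.53 and 7.46 (E16.5), then 7.67, 7.72 and 7.57 (E18.5) in LEC. BEC values of Slit2 were 5.64, 5.61 and 5.39 (E14.5), 5.04, 5.08 and 5.28 (E16.5), then 5.36, 5.08 and 5.45 (E18.5). LEC lay above BEC on every array and had a higher group mean at each later age. The difference was 1.18 ± 0.11 at E14.5, 2.33 ± 0.11 at E16.5, then 2.35 ± 0.11 at E18.5 (5.11-fold). Slit2 rose in LEC (0.93 ± 0.11) and differed by -0.25 ± 0.11 in BEC (adjusted p = 0.098), and the changes differed (1.18 ± 0.16, adjusted p = 6.4e-05). Slit3 was higher in LEC by 0.51 ± 0.08 over the ages, with 0.09 ± 0.15 at E14.5 (adjusted p = 0.82), 0.76 ± 0.15 at E16.5, then 0.69 ± 0.15 at E18.5, and rose in LEC by 0.96 ± 0.15. For Slit1, dim in 4 of 6 groups, the difference was -0.01 ± 0.08 (95% interval -0.18 to 0.17).

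Robo4 read 8.46, 8.39 and 8.31 (E14.5), 8.17, 8.29 and 8.48 (E16.5), then 7.11, 7.85 and 7.71 (E18.5) in LEC. BEC values of Robo4 were 10.60, 10.70 and 10.72 (E14.5), 10.73, 10.67 and 10.68 (E16.5), then 10.28, 10.54 and 10.56 (E18.5). All LEC arrays lay below all BEC arrays, with LEC E18.5 replicate 1 the lowest. The difference was -2.52 ± 0.08 over the ages (5.74-fold, adjusted p = 1.1e-14), from -2.29 ± 0.15 at E14.5 to -2.90 ± 0.15 at E18.5. Robo4 fell with age in LEC (-0.83 ± 0.15), in BEC the difference was -0.21 ± 0.15, and the cell types did not differ past the test in this change (-0.62 ± 0.21, adjusted p = 0.077). Its neighbour Robo3, with 0 protein-coding genes between them, did not differ past the test (-0.07 ± 0.07, 95% interval -0.23 to 0.08).

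Robo1, a main SLIT receptor, changed sides between the ages. It read 8.14, 8.01 and 7.85 (E14.5), 7.76, 7.81 and 7.92 (E16.5), then 7.88, 8.15 and 8.17 (E18.5) in LEC. BEC values of Robo1 were 8.78, 8.65 and 8.76 (E14.5), 7.99, 8.04 and 8.11 (E16.5), then 7.33, 7.46 and 7.42 (E18.5). LEC arrays lay below BEC arrays at E14.5 and E16.5 and above them at E18.5. The difference was -0.73 ± 0.10 at E14.5 (adjusted p = 2.6e-05), -0.22 ± 0.10 at E16.5 (adjusted p = 0.15), then 0.66 ± 0.10 at E18.5 (adjusted p = 5.5e-05). Robo1 fell in BEC by 1.32 ± 0.10, in LEC the difference was 0.07 ± 0.10, and the changes differed (1.39 ± 0.15, adjusted p = 5.2e-06). Over the ages the mean difference was -0.10 ± 0.06, and -0.47 without the E18.5 arrays (adjusted p = 4.2e-05).

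Robo2, the gene next to Robo1 in the RefSeq table with 0 protein-coding genes between them, read 5.15, 4.84 and 4.68 (E14.5), 4.88, 4.96 and 5.34 (E16.5), then 5.67, 6.28 and 6.04 (E18.5) in LEC. BEC values of Robo2 were 5.24, 5.25 and 5.32 (E14.5), 5.44, 5.35 and 5.5 (E16.5), then 5.76, 5.60 and 5.63 (E18.5). LEC lay below BEC at the earlier ages, and the groups overlapped at E18.5. Robo2 rose in LEC (1.11 ± 0.15), and in BEC the difference was 0.39 ± 0.15 (adjusted p = 0.055). The difference between these changes (0.72 ± 0.21, adjusted p = 0.039) ended in 10 of 18 fits that left out 1 array (0.58 to 0.74, adjusted p = 0.051 to 0.11). These arrays were all 3 of BEC E14.5, BEC E16.5 replicate 1, and replicates 2 and 3 of BEC E18.5, LEC E14.5 and LEC E18.5. It also ended in 5 other settings, among them both other scalings (0.67 and 0.68). Without the E18.5 arrays the mean difference was -0.38 (adjusted p = 0.0056), against -0.14 ± 0.09 with them.

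Of the netrins, Ntn1 and Ntn4 were higher in LEC. Ntn1, the founding member of the family, read 8.42, 8.47 and 8.38 (E14.5), 8.51, 8.40 and 8.66 (E16.5), then 8.41, 7.92 and 8.66 (E18.5) in LEC. BEC values of Ntn1 were 5.78, 5.89 and 6.04 (E14.5), 5.60, 5.57 and 5.22 (E16.5), then 4.84, 5.56 and 5.84 (E18.5). LEC and BEC did not overlap, and the spread was widest at E18.5 in both. The difference was 2.83 ± 0.12 over the ages (7.13-fold, adjusted p = 2.3e-13), with 2.52 ± 0.20, 3.06 ± 0.20 and 2.92 ± 0.20 at the 3 ages in order. Neither age change passed the test (-0.09 ± 0.20 in LEC and -0.49 ± 0.20 in BEC). Ntn4, a netrin of basement membranes, was higher by 0.34 ± 0.10 (adjusted p = 0.0086), while Ntn3 (0.00 ± 0.07, 95% interval -0.15 to 0.16) and Ntn5 (-0.05 ± 0.07, -0.20 to 0.11) did not differ past the test.

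Neo1, the receptor neogenin, was the netrin receptor with a difference over the ages. It read 6.57, 7.36 and 6.93 (E14.5), 9.29, 8.86 and 9.20 (E16.5), then 9.68, 10.09 and 9.85 (E18.5) in LEC. BEC values of Neo1 were 6.79, 6.77 and 6.92 (E14.5), 7.31, 7.46 and 7.41 (E16.5), then 7.95, 8.22 and 8.08 (E18.5). The groups overlapped at E14.5 and stood apart from E16.5 on. The difference was 0.13 ± 0.16 at E14.5 (adjusted p = 0.74), 1.73 ± 0.16 at E16.5, then 1.79 ± 0.16 at E18.5. Neo1 rose in LEC by 2.92 ± 0.16 (7.59-fold) and in BEC by 1.26 ± 0.16 (2.39-fold), and the rises differed (1.66 ± 0.23, adjusted p = 9.7e-05).

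Unc5b, the netrin receptor of endothelial tip cells, read 9.05, 8.94 and 9.03 (E14.5), 8.11, 8.25 and 8.29 (E16.5), then 7.77, 7.52 and 7.85 (E18.5) in LEC. BEC values of Unc5b were 8.26, 8.49 and 8.42 (E14.5), 8.39, 8.31 and 8.30 (E16.5), then 7.55, 8.14 and 7.93 (E18.5). LEC lay above BEC at E14.5 and just below it at E16.5, and the groups overlapped at E18.5. At E14.5 Unc5b was higher in LEC by 0.62 ± 0.13 (adjusted p = 0.0015), whereas the difference was -0.12 ± 0.13 at E16.5 and -0.16 ± 0.13 at E18.5. Over the ages it was 0.11 ± 0.07 (adjusted p = 0.26), and 0.25 without the E18.5 arrays (adjusted p = 0.0053). It fell with age in LEC (-1.30 ± 0.13) and in BEC (-0.51 ± 0.13), by more in LEC (-0.78 ± 0.18, adjusted p = 0.0095).

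The other netrin receptors did not differ past the test over the ages. The differences were -0.10 ± 0.06 for Dcc (95% interval -0.23 to 0.04), -0.08 ± 0.09 for Unc5a (-0.26 to 0.10), -0.03 ± 0.08 for Unc5c (-0.19 to 0.13) and -0.08 ± 0.07 for Unc5d (-0.22 to 0.06). Levels of Dcc lay at 4.13 to 4.77, those of Unc5c at 4.06 to 4.85 and those of Unc5d at 4.64 to 5.33, so these values were near or below the 4.66 bound for dim signals.

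**Figure D3:**
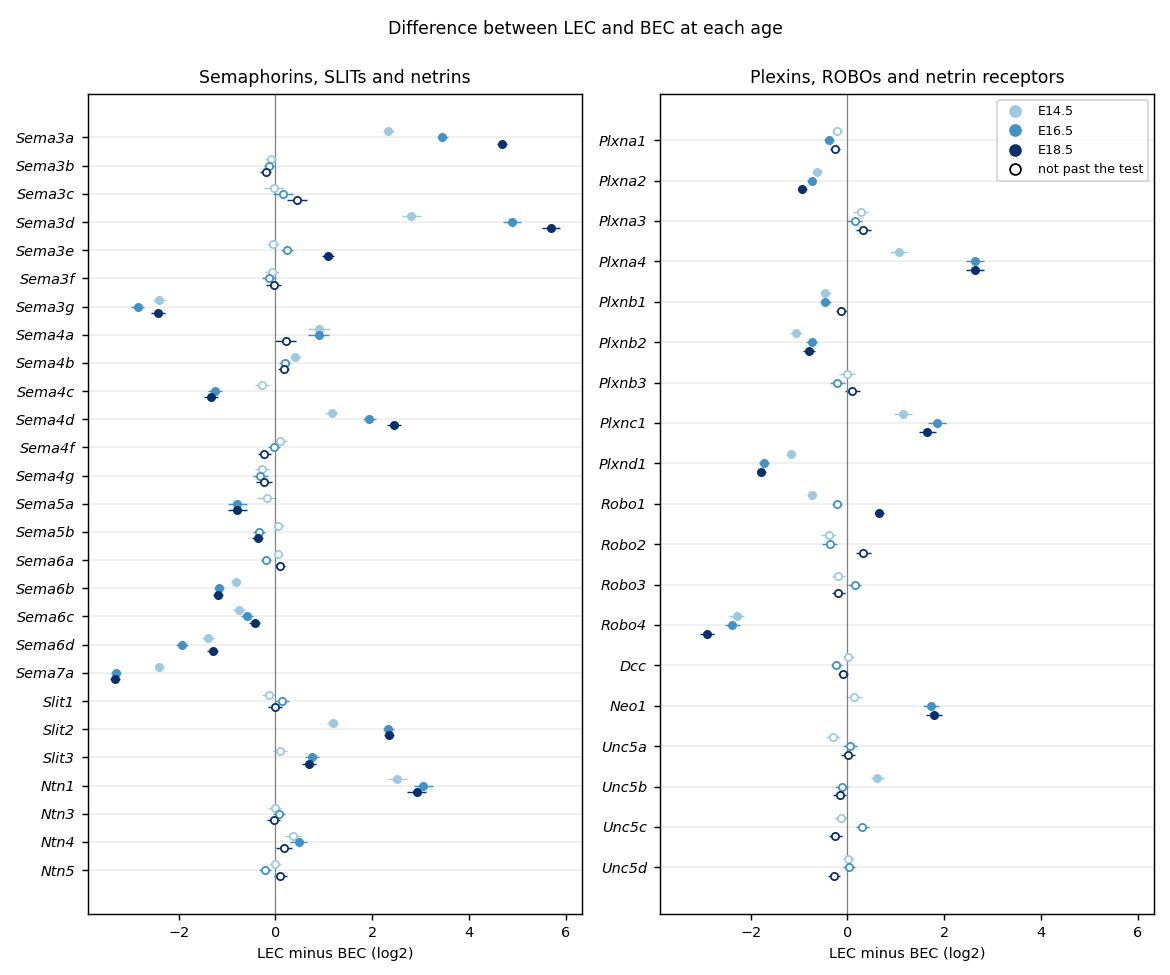
LEC minus BEC difference (log2) of all 46 guidance genes at the 3 ages (E14.5 in light blue, E18.5 in dark blue), with bars for the limma standard error, ligands on the left and receptors on the right. Filled points passed the test. Sema3d reached 5.69 and Sema7a -3.32 at E18.5, and Robo1 moved from -0.73 to 0.66.

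At the single ages the directions were balanced as well. In either direction 21 guidance genes passed the test at E14.5 (45.7%, against 16.5% of all genes), 24 at E16.5 (52.2%, against 25.2%) and 23 at E18.5 (50%, against 30.4%). By at least 1, these were 13 (28.3%, against 4.96%), 15 (32.6%, against 7.71%) and 16 (34.8%, against 7.85%). At E14.5, 10 guidance genes were higher in LEC (21.7%, against 8.6% of all genes) and 11 lower (23.9%, against 7.94%). At E16.5 these were 11 (23.9%, against 13%) and 13 (28.3%, against 12.2%), and at E18.5 they were 11 (23.9%, against 14.6%) and 12 (26.1%, against 15.9%). In the class 3 semaphorins, 2 were higher at E14.5 and E16.5 and 3 at E18.5, with 1 lower at each age. Class 6 had 3 lower and 0 higher genes of 4 at every age. Plexins had 2 higher genes at every age and 4, 5 and 3 lower ones.

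The change from E14.5 to E18.5 passed the test for 22 guidance genes in LEC (47.8%, against 40.9% of all genes) and 18 in BEC (39.1%, against 30.6%). It was at least 1 for 9 in LEC (19.6%, against 7.88%) and 5 in BEC (10.9%, against 4.67%). In LEC, 17 guidance genes rose (37%, against 19.7% of all genes) and 5 fell (10.9%, against 21.2%). Among all genes tested, 48.2% of those past the test rose in LEC, and 37.6% once every array was moved to the same median. Under that scaling the calls of Plxna2 (0.18), Sema3b (0.28), Sema3c (0.51) and Sema5b (0.30) in LEC ended, out of the 17 that rose, and in BEC those of Ntn4 (0.44) and Sema4a (0.59). In BEC, 11 rose (23.9%, against 13.3%) and 7 fell (15.2%, against 17.3%). Ligands rose for 12 of 27 and fell for 1 in LEC, and rose for 9 and fell for 3 in BEC. Receptors rose for 5 of 19 and fell for 4 in LEC, and rose for 2 and fell for 4 in BEC. The class 3 semaphorins rose for 6 of 7 in LEC, with a median of 0.67, and for 2 of 7 in BEC, where 2 fell. The LEC calls of Sema3b and Sema3c are among those that ended under the other scaling. That of Sema3c, dim in 5 groups, also ended without LEC E18.5 replicate 2 (0.35, adjusted p = 0.18) or without LEC E14.5 replicate 2 or 3. That of Sema3b also ended without LEC E14.5 replicate 3 or LEC E18.5 replicate 3 (0.28 each). Smaller age changes in BEC were the falls of Plxnb1 (-0.75 ± 0.11), Unc5a (-0.55 ± 0.15, a call that ended without BEC E14.5 replicate 3) and Sema6c (-0.48 ± 0.12), and the rises of Sema5b (0.82 ± 0.12) and Plxna2 (0.55 ± 0.09). Plxnb1 also fell in LEC (-0.42 ± 0.11). Markers of other cell types changed as well. On LEC arrays, macrophage markers summed to 2085 to 2186 at E14.5 and 6567 to 10145 at E18.5, and epithelial markers to 409 to 462 and 1532 to 2593. General leukocyte markers summed there to 2368 to 3203 at E14.5 and 1351 to 1910 at E18.5. On BEC arrays, epithelial markers summed to 290 to 352 and 569 to 837, lymphatic markers to 2723 to 3281 and 1369 to 1466, and mural markers to 582 to 631 and 3311 to 4157. The part of these cells in the age changes was not tested.

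The difference between the age changes of LEC and BEC passed the test for 13 of 46 guidance genes (28.3%, against 8.85% of all genes), and by at least 1 for 9 (19.6%, against 3.34%). It was toward LEC for 9 (19.6%, against 5.02% of all genes) and toward BEC for 4 (8.7%, against 3.83%). The 9 were Sema3d, Sema3a, Neo1, Plxna4, Robo1, Sema4d, Slit2, Sema3e and Robo2, and the 4 were Sema4c, Sema7a, Unc5b and Plxnd1. For Sema3d and Sema3a the cell types moved in opposite directions, each past the test. For Neo1 and Unc5b both cell types moved the same way by different amounts. The 2 age changes and the LEC against BEC differences at E14.5 and E18.5 share arrays.

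**Figure D4:**
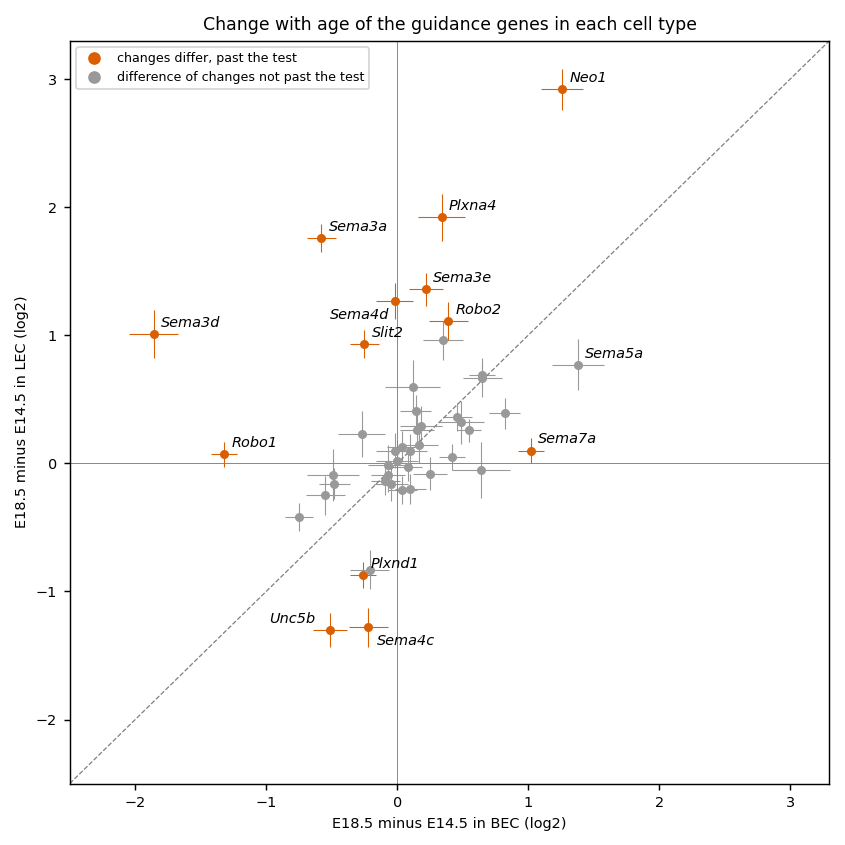
Change from E14.5 to E18.5 (log2) in BEC (horizontal) and in LEC (vertical) for the 46 guidance genes, with bars for the limma standard error; the dashed line marks equal changes. Orange points are the 13 genes whose changes differed past the test, with Neo1 at 2.92 in LEC and 1.26 in BEC, and Sema3d at 1.01 and -1.86.

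Further genes of these pathways were read from 2 lists. Of 25 measured co-receptors and other guidance ligands or receptors, 8 were higher and 4 lower in LEC over the ages (median 0.03). Of 50 measured intracellular effectors, 9 were higher and 26 lower (median -0.19, against -0.02 for all genes). Among all genes tested, 18.2% were higher in LEC over the ages and 19% lower. The class 3 co-receptors diverged: neuropilin 1, Nrp1, was lower in LEC (-3.74 ± 0.12) and neuropilin 2, Nrp2, higher (0.88 ± 0.06). Nrp2 is named beside Nrp1 after its values were seen. Nrp1 had means of 5.71, 6.75 and 7.81 in LEC and 10.17, 10.66 and 10.68 in BEC at the 3 ages in order. It rose in LEC by 2.10 ± 0.21, and its difference from BEC went from -4.46 ± 0.21 at E14.5 to -2.87 ± 0.21 at E18.5 (1.59 ± 0.30 between the changes, adjusted p = 0.0019). On the LEC arrays 6 of 8 blood endothelial markers rose with it and 2 fell (median 0.87), among the former Flt1 (1.05 ± 0.17), Esam (1.17 ± 0.21) and Cd93 (1.34 ± 0.11). Their summed linear level there was 1478 to 1725 at E14.5 and 2565 to 3136 at E18.5, and their part in the Nrp1 result was not tested. Nrp2 had means of 11.30, 10.99 and 11.15 in LEC and 10.32, 10.37 and 10.11 in BEC, with no age change past the test, except in BEC without BEC E18.5 replicate 2 (-0.29, adjusted p = 0.043).

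Large differences toward LEC were also seen for the adhesion molecule Nrcam (3.14 ± 0.09), a partner of class 3 receptors, the leucine-rich repeat protein Flrt3 (2.01 ± 0.09), which binds UNC5 and ROBO receptors, and the kinase gene Pak3 (1.15 ± 0.08). In BEC, Nrcam lay below 4.66 on all arrays of E16.5 (means 5.18, 4.39 and 4.65 at the 3 ages). Pak3 lay near that bound in BEC, with means of 4.59, 4.46 and 4.70. The sizes of the Nrcam and Pak3 differences are thus limited by dim signal. Another was that of Mical2 (1.99 ± 0.06), of the MICAL enzymes that take actin filaments apart, whose first members act behind plexins. Toward BEC lay Mcam (-3.48 ± 0.07), an adhesion molecule of vessels, Ablim1 (-2.85 ± 0.08) and Ablim3 (-1.11 ± 0.10), actin-binding proteins, Rnd3 (-1.51 ± 0.10), Dpysl3 (-1.15 ± 0.06), of the collapsin response mediators, and the actin regulator Cap2 (-1.07 ± 0.09). Cap2 lay near the 4.66 bound in LEC, with means of 5.01, 4.58 and 4.83, so the size of its difference is limited by dim signal too. The difference of Ablim3 was 0.28 at E14.5 and not past the test, -1.65 at E16.5, then -1.97 at E18.5. Without BEC E14.5 replicate 2 it was 0.49 at E14.5 (adjusted p = 0.045), toward LEC. Over the ages Ablim3 stood at -0.68 without the E18.5 arrays. It rose in BEC by 2.58 ± 0.17 and differed by 0.33 ± 0.17 in LEC (0.48, adjusted p = 0.038, without LEC E18.5 replicate 1), the opposite pattern to Rnd3, which rose in LEC by 1.65 ± 0.17 and differed by 0.14 ± 0.17 in BEC. Mical2 rose in LEC by 1.04 ± 0.11 and differed by -0.12 ± 0.11 in BEC. The difference of Rnd3 was -1.88 at E14.5, -2.27 at E16.5, then -0.37 and not past the test at E18.5. That of Dpysl3 was -1.69, -1.44 and -0.32 at the 3 ages in order, and its E18.5 call ended in 6 of 28 settings. Dpysl3 rose in LEC by 1.02 and fell in BEC (-0.35), with 1.37 between the changes.

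RefSeq promoters were found for 37 of the 46 guidance genes, 50 windows of 300 bases in all. Of these windows, 22 held ETS-type letters, 7 SOX-type letters and 4 GATA-type letters. Among 32851 windows of all genes, 46.5%, 18.7% and 18.6% held them. The genes higher in LEC by at least 1 had 8 windows from 6 genes, several of them of Sema4d, while Ntn1 and Plxna4 had no window. Those lower had 8 windows from 6 genes, with more than 1 for Sema6b and Sema6d. SOX-type letters were in 3 windows of the former and 0 of the latter, and ETS-type letters in 3 and 4. GATA-type letters were in 0 and 1, the 1 being a window of Sema6d. These are counts of letters and show no binding.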

How the data were processed

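Deposited were log2 expression values by RMA, which the authors computed with oligo (version 1.54.1) from 18 Affymetrix Mouse Gene 1.0 ST arrays, per the submitters' processing notes. The sources used here give neither the set of arrays normalized together nor any filter. Of 35556 rows, 21789 had 1 gene symbol in the platform annotation, 1621 had several and 12146 were not listed. The brightest row per gene left 19938 genes, and dim genes were kept. Group means of all 18 arrays were fitted by linear models (limma 3.58.1, R 4.3.3; moderated variances without trend; 12 residual and 6.11 prior degrees of freedom). Two-sided p values were adjusted for the 19938 genes of each of 7 contrasts (Benjamini-Hochberg, threshold 0.05), and the fit was tested on simulated data. Errors are limma standard errors (SE) and intervals are 95% intervals, with 3 arrays a group; arrays give no read depth, and their number limits the precision.

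The members and lists were chosen with earlier results of these data known. Members are given on every array when called by at least 1 over the mean of the ages or in an age change, or when called in the difference between the age changes; list genes are named when called by at least 1 over the mean of the ages. A bound for dim genes planned at the 75th percentile of olfactory and vomeronasal receptor genes (3.59) was below all values of the members, so the 95th percentile (4.66), chosen after seeing the data, is used in the text. LEC and BEC samples of an age were matched and carry the same replicate numbers, but the labels do not say that a number marks a litter. Deviations from the group means correlated at -0.11 to 0.13 over 9 same-numbered pairs. The numbers were not used as pairs, so the main fit leaves the matching out. Alternatives covered the block, scaling, filter, rows of a gene, variance model, groups in the fit, age and single arrays. Promoters are from RefSeq (GRCm38.p6).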

Additional observations from a re-analysis of the deposited data

Results flagged for a closer look

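For 13 guidance genes the change from E14.5 to E18.5 differed between LEC and BEC by limma's test of the difference itself. The differences, LEC change minus BEC change on the log2 scale, were 2.87 for Sema3d, 2.35 for Sema3a, 1.66 for Neo1, 1.58 for Plxna4, 1.39 for Robo1, 1.28 for Sema4d, 1.18 for Slit2, 1.13 for Sema3e and 0.72 for Robo2. On the other side they were -1.06 for Sema4c, -0.92 for Sema7a, -0.78 for Unc5b and -0.61 for Plxnd1. Groups of 3 arrays were not tested for single arrays that stand apart.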

How the results depend on the processing

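The number of guidance genes past the test stayed within 1.5 times its value in the report for all 7 comparisons and all alternatives run. Leaving out each of the 18 arrays in turn gave 27 to 30 genes for LEC against BEC over the mean of the ages, 19 to 22 at E14.5, 22 to 25 at E16.5, 22 to 24 at E18.5, 19 to 23 for the age change in LEC, 15 to 21 in BEC and 12 to 15 for the difference between these changes. Of 216 differences past the test, those of the members and of 12 named co-receptor and effector genes over the 7 comparisons, 193 passed it in every setting run for them and 23 did not in at least 1; no direction reversed. With age and replicate number as a replicate block, the count for LEC against BEC over the ages was 29 with the block as random and 28 with it as fixed, against 29 without it; the fixed block holds age, so it gives no age change within a cell type. The consensus correlation of the block was 0.02, and 4 of 9 LEC arrays correlated best with the BEC array of their own number. The calls lost with the fixed block were those of Flrt3 (0.81, adjusted p = 0.054) and Robo2 (0.72, adjusted p = 0.066) for the difference between the changes, Ntn4 at E16.5 (0.48, adjusted p = 0.089) and Sema5b at E18.5 (-0.37, adjusted p = 0.068) and over the ages (-0.21, adjusted p = 0.056). Calls of Ntn4, Sema4a and Unc5a in BEC with age ended without 4, 4 and 1 single arrays. At E14.5 those of Plxnb1 (-0.36) and Sema4b (0.38) ended without BEC E14.5 replicate 3, and at E16.5 that of Plxna1 (-0.34) without BEC E16.5 replicate 1. At E16.5 that of Ntn4 ended in 8 of the 18 fits that left out 1 array (0.35 to 0.52, adjusted p = 0.05 to 0.21). It also ended with quantile normalization (0.46, adjusted p = 0.064). At E18.5 that of Sema5b ended without 4 single arrays (-0.38 to -0.29, adjusted p = 0.059 to 0.12). It also ended with array weights (-0.36, adjusted p = 0.19) and with only the groups compared (-0.37, adjusted p = 0.12). The cause of these losses was not tested. Signals near 4.66 limit what can be read from Sema3c, Sema4f, Sema4g, Slit1, Ntn5, Dcc, Unc5c, Unc5d, Robo3 and Plxnb3, and from Sema3d, Sema3e, Nrcam and Pak3 in BEC. The same holds for Sema3e and Sema5a in LEC at E14.5 and E16.5, and for Robo2 in LEC at E14.5. In LEC it holds as well for Cap2 and, at E16.5, for Rnd3. It also holds in BEC for Sema5a at E14.5, Sema4a and Flrt3 at E16.5, and Sema3a at E18.5.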
